A study of Mus musculus with 36 samples.

Results

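The 10 autosomal genes described here encode proteins that act with long noncoding RNA in gene silencing, and they were followed through differentiation of female mouse embryonic stem cells. The members were Ciz1, Hnrnpu, Spen, Hdac3, Rbm15, Hnrnpk, Lbr, Smchd1, Ctcf and Yy1, taken from a list of names. All 10 had a line of their own among the 25965 genes of the deposited log2 expression values, and all 10 were among the 14612 genes that passed the filter on low values (at least 1 RPM, the reads of a gene scaled to a fixed library total, in at least 4 of the 36 libraries). The cells were Xmas mESCs, female lines on a C57/Bl6 background. As derived, they carried a GFP cassette and an mCherry cassette at Hprt on different X chromosomes. They were weaned over 3 days from 2i and LIF, which hold the naive state, into serum medium free of LIF. RNA was sequenced once a day from day 0 to day 8. Each day had 4 libraries: replicate 1 came from line X14 with the label double, replicate 2 from X14 single, replicate 3 from X18 double and replicate 4 from X18 single. The words double and single are not explained in the labels and serve here only as names. The paper reports that sorted mESCs positive for only GFP or only mCherry held just the matching allele. It uses the reporters to tell XX cells from XO cells, which have lost an X chromosome. Whether the libraries labelled single came from XO cells is not stated in the labels. The 36 libraries thus form 4 combinations of line and label, each taken here as 1 culture sampled daily. The labels do not state this sampling. On that reading the days of one culture were not independent cultures, and p-values measure the spread between these libraries.

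In female cells, Xist RNA spreads over the X chromosome that will be silenced and gathers proteins that repress transcription, compact the chromosome and hold it at the nuclear edge. SPEN binds the A repeat of Xist and brings in corepressors with the histone deacetylase HDAC3, while RBM15 links the RNA to the m6A methyltransferase. HNRNPK brings in Polycomb, HNRNPU and CIZ1 keep the RNA attached to the chromosome territory, LBR ties it to the lamina, SMCHD1 and CTCF shape the chromosome, and YY1 binds both the Xist gene and the RNA.

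Promoter windows are printed for 5 members: the 3 that ended highest above day 0 (Ciz1, Smchd1 and Yy1), Lbr, which ended below it, and Ctcf, because its window matches the motif of another member. Each window is the RefSeq sequence (GRCm38.p6, equal to mm10) from 250 bases before to 50 bases after a gene's start, written 5′ to 3′ on the gene's strand. Capitals mark AGNGGGCGC (centre of the CTCF motif), GCCATNTT (YY1 motif) or CCAAT, each searched on both strands, so that ATTGG marks CCAAT on the other strand.
Ciz1 (chr2:32362760-32363059, plus strand): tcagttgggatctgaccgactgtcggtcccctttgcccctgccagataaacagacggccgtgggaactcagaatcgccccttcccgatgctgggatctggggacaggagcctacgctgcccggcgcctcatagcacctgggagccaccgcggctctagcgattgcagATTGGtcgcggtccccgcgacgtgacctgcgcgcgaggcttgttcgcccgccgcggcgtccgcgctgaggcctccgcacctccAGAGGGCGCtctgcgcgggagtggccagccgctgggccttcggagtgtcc
Smchd1 (chr17:71475294-71475593, minus strand): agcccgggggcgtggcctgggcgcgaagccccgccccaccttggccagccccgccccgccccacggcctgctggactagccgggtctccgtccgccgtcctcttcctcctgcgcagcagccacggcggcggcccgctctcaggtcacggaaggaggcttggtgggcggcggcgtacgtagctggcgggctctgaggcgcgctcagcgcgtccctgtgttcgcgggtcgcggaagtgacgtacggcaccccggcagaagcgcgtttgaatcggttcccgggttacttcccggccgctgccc
Yy1 (chr12:108793047-108793346, plus strand): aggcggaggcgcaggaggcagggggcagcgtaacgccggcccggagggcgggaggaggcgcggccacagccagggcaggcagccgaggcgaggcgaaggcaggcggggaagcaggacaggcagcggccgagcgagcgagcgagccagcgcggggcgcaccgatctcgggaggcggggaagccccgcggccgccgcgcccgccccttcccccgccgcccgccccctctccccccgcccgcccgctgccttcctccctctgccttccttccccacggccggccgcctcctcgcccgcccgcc
Lbr (chr1:181842352-181842651, minus strand): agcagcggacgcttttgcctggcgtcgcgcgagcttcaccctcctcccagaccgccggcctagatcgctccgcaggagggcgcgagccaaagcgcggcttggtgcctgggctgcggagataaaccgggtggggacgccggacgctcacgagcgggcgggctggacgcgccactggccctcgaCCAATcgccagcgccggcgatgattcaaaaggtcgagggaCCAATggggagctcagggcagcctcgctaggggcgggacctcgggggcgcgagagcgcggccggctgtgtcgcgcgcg
Ctcf (chr8:105636288-105636587, plus strand): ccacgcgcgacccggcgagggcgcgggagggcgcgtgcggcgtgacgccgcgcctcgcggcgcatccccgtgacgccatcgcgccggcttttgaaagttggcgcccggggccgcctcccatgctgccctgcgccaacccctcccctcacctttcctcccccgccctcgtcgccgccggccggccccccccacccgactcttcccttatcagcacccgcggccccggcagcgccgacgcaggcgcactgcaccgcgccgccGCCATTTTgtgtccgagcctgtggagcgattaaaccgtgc

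Among the 9 members whose windows were searched, the CTCF letters were present only at Ciz1 and the YY1 letters only at Ctcf. Of all 32851 windows, 2.88% held the CTCF letters and 6.05% the YY1 letters. Here and below, members are counted by gene, with a match in any window of the gene, and the background by window. CCAAT was present at Ciz1, Hnrnpk, Lbr and Rbm15 and in 37.4% of all windows. The GC box GGGCGG, which is not set in capitals and was also searched on both strands, was present at 8 of the 9 members (Hnrnpk was the exception, and Ciz1 had it at a second RefSeq start alone, not in the window printed) and in 35.7% of all windows. The windows were rich in CpG: Spen held 54 CpG, Ctcf 47 and Rbm15, the poorest, 23, against a median of 7 over all windows. That second window of Ciz1 held the same CTCF match. For Ciz1 the RefSeq start lay 10683 bp inside the deposited gene, whose first part reaches into Dnm1. For Hnrnpk the RefSeq start lay 1226 bp inside the deposited gene and for Yy1 324 bp. The windows of Ciz1, Hnrnpk and Yy1 thus lie wholly within the deposited genes.

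Depth differed between libraries, from 612740 to 2445826 reads in genes. The members spanned a wide range of counts, from 1 to 65 reads per library for Ciz1 up to 261 to 3950 reads for Hnrnpu. Levels are given in RPKM (RPM per kilobase of exon) and differences on the log2 scale. Libraries also differed in how well long transcripts were represented. The slope of a library's log2 deviation on log2 exon length averaged −0.19 on day 0 (−0.43 to 0.12) and 0.08 on day 8 (−0.16 to 0.29), with the lowest values in day 0 replicate 3 (−0.43) and day 5 replicate 1 (−0.33). The members' exons ran from 2.90 kb (Yy1) to 14.1 kb (Spen). The level of 569 X-linked genes relative to 14042 autosomal genes was higher in double than in single in all 16 same-line pairs of days 1 to 8, by 0.19 to 1.14 on the log2 scale, and by 1.17 in X18 on day 0. In X14 on day 0 it was lower by 1.29 in the library labelled double, so this pair goes against the order of all other pairs. Whether its 2 libraries carry each other's labels was not tested. Nor was it tested whether the lower X-linked level in single came from XO cells. The labels are used as given, and the day 0 values of replicates 1 and 2 and the fits without 1 replicate depend on them. Label differences of Ciz1, Ctcf and Smchd1 are given with and without day 0. Those of the cell state markers are given only with day 0 included.

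The cells lost naive markers (Zfp42, Esrrb, Klf4, Tbx3, Nanog and Tfcp2l1; 6 of 6 called lower on day 8), whose summed level ran from 973 to 1213 RPKM on day 0 and from 60.5 to 128 RPKM on day 8. The 4 primed markers were all called higher on day 4, at 379 to 749 RPKM in sum. On day 8 the keratins Krt8, Krt18 and Krt19 summed to 1491 to 3276 RPKM, against 1.47 to 6.02 on day 0. Col1a1, Col1a2 and Acta2 were called higher as well, and the 4 fibroblast-like markers with Col3a1 summed to 14.2 to 25.2 RPKM. The 4 mesoderm markers ran from 7.40 to 94.1 RPKM on day 8, with T called higher. The endoderm sum stayed at or under 4.07 RPKM in every library, and Ttr had no read. The part of these cell types in the members' changes was not tested, and in bulk RNA fewer cells of a type and less RNA per cell cannot be told apart.

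Over the 9 days, 8 of the 10 members changed at an adjusted p under 0.05 (moderated F test in limma, Benjamini-Hochberg over all genes tested), against 65.2% of all genes. Spen and Ctcf did not pass (adjusted p = 0.45 and 0.41). Against day 0, no member was called on day 1 (limma, with 0.0684% of all genes). Days 2 and 3 had 1 member each (4.29% and 13.4% of all genes), day 4 had 3 (25.8%), day 5 had 4 (35.8%), day 6 had 3 (44.3%), and days 7 and 8 had 5 each (46.3% and 45.7%). The shares of members called stayed near those of all genes. On day 8 Ciz1, Smchd1, Yy1 and Hdac3 were called higher (4 of 10, with 29.2% of all genes) and Lbr lower (1 of 10, with 16.5%). The median log2 fold change on day 8 was 0.24 over the members and 0.23 over all genes. When libraries were scaled to a common 75th percentile, the median of all genes moved by −0.28 and the share of calls that were higher from 64.0% to 49.8%. All 5 members kept their direction and their call under that scaling.

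**Figure D1:**
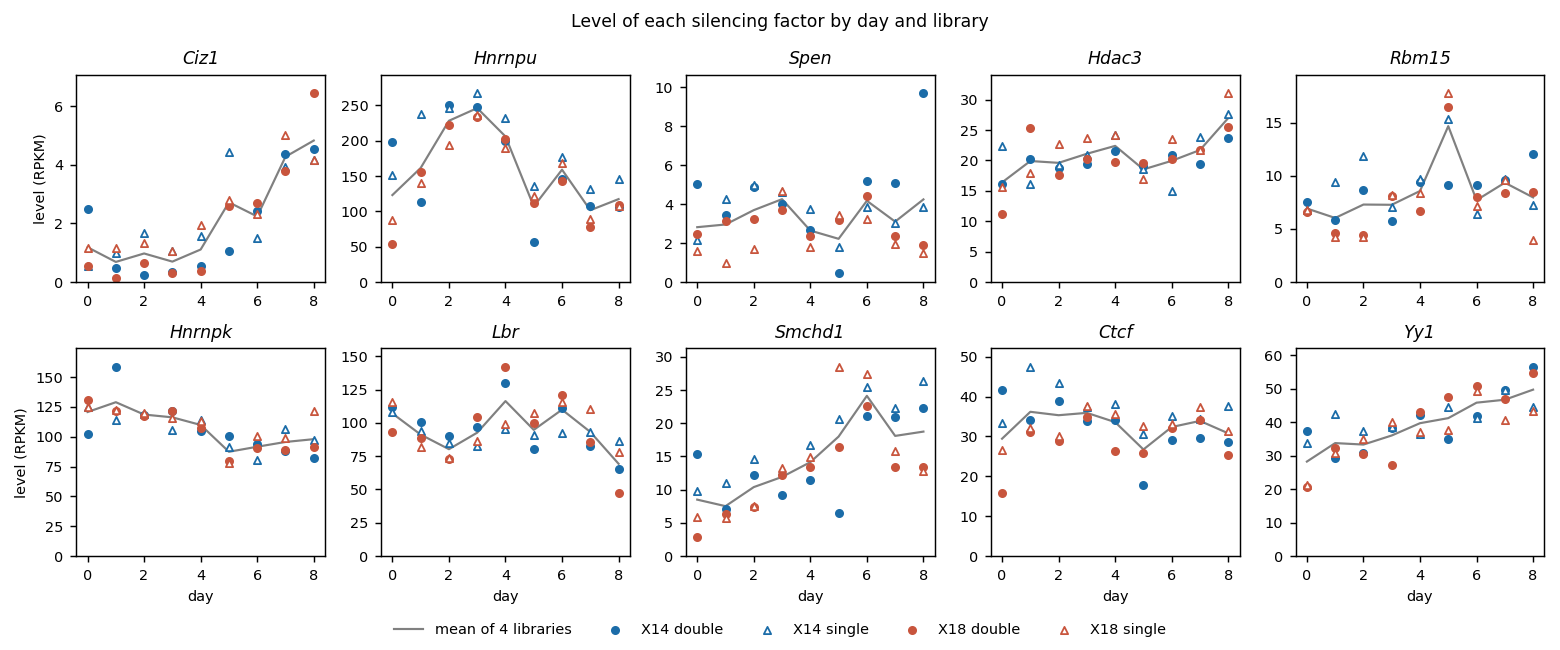
Level in RPKM (y axis, from 0, another scale in each panel) of the 10 silencing factors by day (x axis); circles are libraries labelled double, triangles single, blue X14 and red X18, and the grey line is the mean of 4 libraries. Ciz1 rose late, from a mean of 1.11 RPKM on day 4 to 4.83 on day 8, Hnrnpu peaked at 246 RPKM on day 3, and Yy1 went from 28.2 to 49.7 RPKM.

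**Figure D2:**
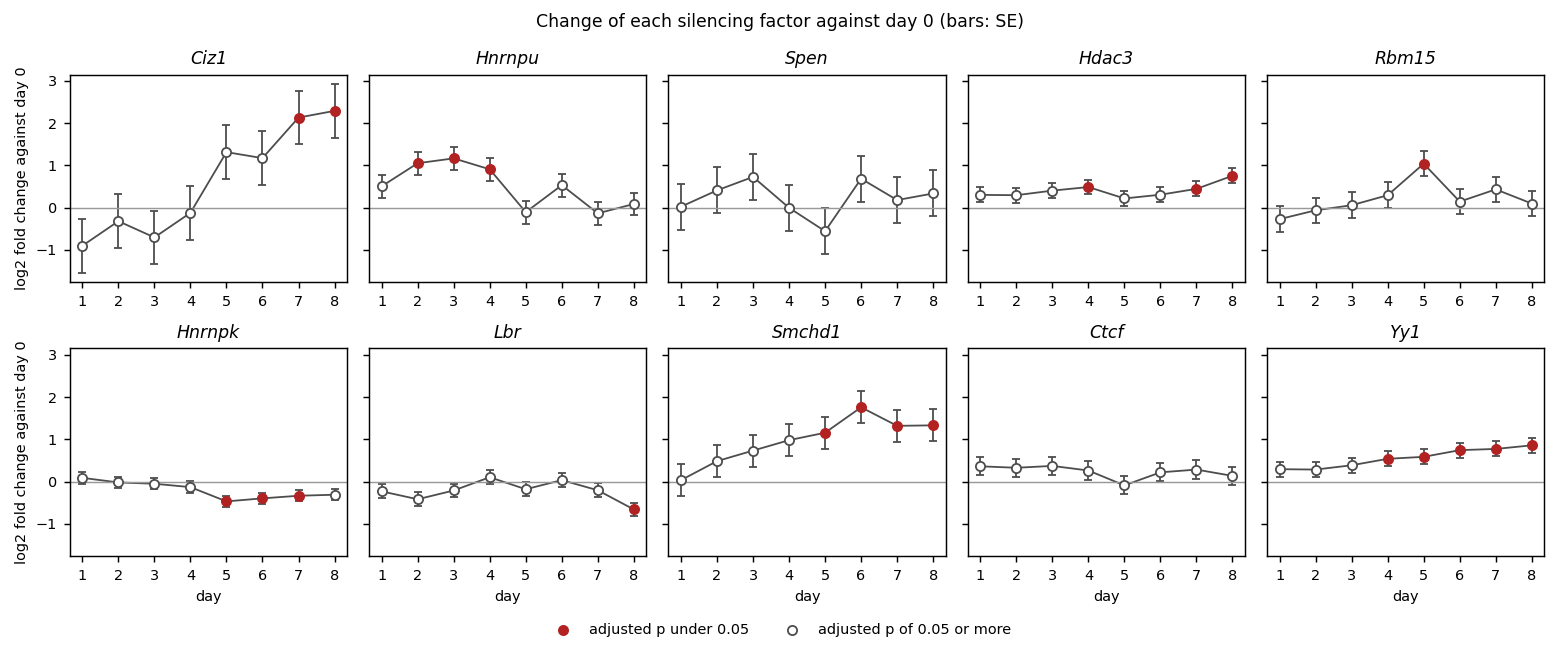
Log2 fold change against day 0 (y axis, common to all panels) by day (x axis) with SE bars from the limma fit; filled red points have an adjusted p under 0.05. Hnrnpu was called on days 2 to 4, Ciz1 on days 7 and 8, Rbm15 on day 5 alone and Lbr on day 8 alone.

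The retention factors Ciz1 and Hnrnpu moved at different times. Ciz1, the nuclear matrix protein that anchors Xist, was scarce through day 4 and several-fold higher at the end. On day 0 it stood at 2.49, 0.560, 0.553 and 1.15 RPKM in replicates 1 to 4, on day 4 at 0.542, 1.57, 0.379 and 1.96, and on day 8 at 4.54, 4.18, 6.44 and 4.16. All 4 libraries of day 8 lay above all 4 of day 0 and of day 4. The log2 fold change against day 0 was 2.13 on day 7 (SE 0.64, adjusted p = 0.0066 in limma) and 2.29 on day 8 (SE 0.64, adjusted p = 0.0037), a 4.89-fold rise. Against day 4, Ciz1 on day 8 was higher by 2.41 (SE 0.64, adjusted p = 0.0035), and this call was lost without replicate 3 (1.86, adjusted p = 0.055). On days 5 and 6 its log2 fold changes of 1.31 and 1.17 did not pass. The Ciz1 line (chr2:32352327-32380226, plus strand) overlaps Dnm1, a dynamin gene on the minus strand, by 1003 bp and 1110008P14Rik, also on the minus strand, by 3130 bp. The use of strand in counting is not given in the sources used here, so reads of the overlaps cannot be told apart. Dnm1 was called higher on day 8 by 1.52 (SE 0.61, adjusted p = 0.041) and 1110008P14Rik by 0.88 (SE 0.31, adjusted p = 0.020). Over the 36 libraries Ciz1 held 851 reads, Dnm1 318 and 1110008P14Rik 804.

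Hnrnpu, which encodes the scaffold attachment factor SAF-A, was high in the middle of the course. Its day 0 libraries were spread widely, at 198, 152, 54.1 and 88.0 RPKM. On day 3 they stood at 248, 267, 233 and 236 RPKM, all above day 0. By day 8 they were back at 107, 146, 109 and 107 RPKM, within the day 0 range. Hnrnpu had risen by 1.05 at day 2 (SE 0.27, adjusted p = 0.025 in limma). The rise came to 1.17 at day 3 (adjusted p = 0.0044) and to 0.91 at day 4 (adjusted p = 0.013). From day 4 to day 8 it fell by 0.82 on the log2 scale (SE 0.27, adjusted p = 0.019). The 3 early calls were lost without replicate 3 (adjusted p = 0.54, 0.14 and 0.24) and without replicate 4 (0.26, 0.097 and 0.12), the pair of X18 cultures that were lowest on day 0. The call from day 4 to day 8 was lost without the same replicates (adjusted p = 0.061 and 0.086) and with quantile normalization (0.080). Removing the length trend left day 3 at 1.0 (adjusted p = 0.0016). The near-neighbour Gm16586, which overlaps Hnrnpu by 1098 bp on the same strand, held 3.05% as many reads.

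Of the corepressor pair, Hdac3 rose and Spen was not called on any day. Hdac3, the deacetylase of the corepressor complexes, stood at 16.2, 22.4, 11.2 and 15.7 RPKM on day 0 and at 23.7, 27.6, 25.5 and 31.0 on day 8. Every day 8 library was above every day 0 library. Its log2 fold change was 0.75 on day 8 (SE 0.18, adjusted p = 7.3e-04 in limma), with smaller rises at day 4 (0.49, adjusted p = 0.039) and at day 7 (0.45, adjusted p = 0.038). The day 4 and day 7 calls each held in 5 of 14 refits under other settings and the day 8 call in 13 of 14, and none of them held with a log2 fold change of at least 1 required. Spen, the longest member, ranged from 0.461 to 9.69 RPKM. On day 8 it stood at 9.69, 3.86, 1.92 and 1.52 RPKM, on day 0 at 5.06, 2.17, 2.48 and 1.58, and the 2 groups overlapped. Its log2 fold change on day 8 was 0.34 (SE 0.55, adjusted p = 0.65), an SE larger than that of every other member but Ciz1. Its lowest value, 0.461 RPKM from 5 reads, was in day 5 replicate 1, one of the libraries lowest in long genes. Its highest, 9.69 RPKM from 263 reads, was in day 8 replicate 1, the library with the highest length slope (0.29).

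Rbm15, which guides the m6A writer complex to Xist, was called on day 5 alone. It stood at 7.50, 6.80, 6.60 and 6.79 RPKM on day 0 and at 9.14, 15.4, 16.4 and 17.7 RPKM on day 5. On day 6 it was at 9.16, 6.42, 8.03 and 7.20 RPKM. The day 5 log2 fold change was 1.04 (SE 0.30, adjusted p = 0.0071 in limma), a 2.06-fold rise seen in 4 of 4 replicates, and the call was lost without replicate 3 (0.95, adjusted p = 0.069). On day 7 it was also above all of day 0, at 8.39 to 9.73 RPKM, but the log2 fold change of 0.43 did not pass (adjusted p = 0.24). The day 5 values rest on 23, 61, 86 and 167 reads.

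Hnrnpk, whose protein carries Polycomb to the B repeat of Xist, was lower from day 5. It stood at 103, 125, 131 and 125 RPKM on day 0 and at 101, 91.7, 79.6 and 77.6 RPKM on day 5, and the groups did not overlap. Relative to day 0 it fell by 0.47 at day 5 (SE 0.14, adjusted p = 0.0068 in limma), and the next days it was down as well, with log2 fold changes of −0.40 (adjusted p = 0.017) and −0.33 (adjusted p = 0.041). On day 8 the log2 fold change was −0.31 (adjusted p = 0.059). With quantile normalization none of the 3 calls held (day 5: −0.29, adjusted p = 0.080), and none held without replicate 3 or replicate 4 (day 5: adjusted p = 0.12 and 0.094). Its range over all 36 libraries, 2.04-fold between the lowest and the highest, was the narrowest of the 10.

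Lbr, the lamin B receptor of the inner nuclear membrane, was called lower on day 8 alone. It stood at 112, 108, 92.9 and 116 RPKM on day 0, at 130, 95.1, 142 and 99.0 on day 4 and at 65.4, 86.2, 47.3 and 78.4 on day 8. The day 8 libraries lay below all of day 0 and of day 4. On day 2 Lbr was also below all of day 0, at 72.5 to 90.2 RPKM. Its log2 fold change of −0.42 then did not pass (adjusted p = 0.12 in limma). With the 75th percentile scaling it was called on days 2 and 7 as well. Lbr fell by 0.66 on the log2 scale from day 0 to day 8 (SE 0.16, adjusted p = 0.0014 in limma) and by 0.76 from day 4 to day 8 (SE 0.16, adjusted p = 4.9e-04). The call from day 0 to day 8 was lost when the 2 days were fitted alone (adjusted p = 0.087). That from day 4 to day 8 was lost without replicate 3 (−0.49, adjusted p = 0.051). Together with Hnrnpu it made 2 members called lower between days 4 and 8, with 13.4% of all genes; 1 member, Ciz1, was called higher, with 19.3%, and 3 of 10 were called in either direction, with 32.8%.

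Among the architectural members, Smchd1 rose and Ctcf was not called on any day. Smchd1, a noncanonical SMC protein that maintains silencing, stood at 15.4, 9.83, 2.85 and 5.86 RPKM on day 0 and at 21.1, 25.4, 22.6 and 27.4 on day 6, where no library overlapped day 0. On day 8 it stood at 22.3, 26.4, 13.4 and 12.9 RPKM. X14 was then well above X18, as it had been on day 0. It was called at day 5 with a log2 fold change of 1.16 (SE 0.38, adjusted p = 0.016 in limma) and the change was largest at day 6 (1.76, adjusted p = 3.4e-04). Days 7 and 8 stood at 1.32 and 1.33 (adjusted p = 0.0047 and 0.0044). With the replicate block, which pairs the days of a culture, day 4 was called as well (0.98, adjusted p = 0.030). The day 5 call was lost without replicate 2, 3 or 4 (adjusted p = 0.056, 0.24 and 0.24) and with the 2 days alone (0.15), and the day 7 call without replicate 3. Day 0 replicate 3, the lowest value of Smchd1 at 2.85 RPKM, was also the library lowest in long genes, and Smchd1 has 7.58 kb of exons. Without that library and day 5 replicate 1 the day 8 value was 0.89 (adjusted p = 0.018), and with the length trend removed it was 1.01 (adjusted p = 0.0037). Without replicate 3 in the whole course it was 1.03 (adjusted p = 0.064). Ctcf, the insulator protein of domain borders, stood at 41.7, 33.4, 15.9 and 26.7 RPKM on day 0 and at 28.6, 37.7, 25.4 and 31.3 on day 8. Its daily log2 fold changes ran from −0.09 to 0.37.

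Yy1, a zinc finger factor that activates Xist and holds the RNA at its site of synthesis, had the steadiest rise. It stood at 37.5, 33.7, 20.5 and 21.2 RPKM on day 0, at 42.2, 36.6, 42.9 and 37.1 on day 4 and at 56.4, 44.4, 54.6 and 43.5 on day 8. From day 6 on, all libraries lay above day 0. The mean was higher on each day from day 3 to day 8 than on the day before, and the log2 fold change passed on days 4 to 8, from 0.54 (SE 0.18, adjusted p = 0.023 in limma) to 0.86 on day 8 (SE 0.18, adjusted p = 1.8e-04). The calls of days 6, 7 and 8 held in 14 of 14 refits, but not with a log2 fold change of at least 1 required. The calls of days 4 and 5 were lost without replicate 3 and without replicate 4.

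By level per length, the order of the members was nearly the same on days 0 and 8. On day 0 Hnrnpu (123 ± 64.5 RPKM, SD, n = 4), Hnrnpk (121 ± 12.4) and Lbr (107 ± 9.94) stood highest, and their ranges overlapped. Ctcf (29.4 ± 10.9), Yy1 (28.2 ± 8.64) and Hdac3 (16.4 ± 4.60) followed, each overlapping the next, then Smchd1 (8.49 ± 5.44) and Rbm15 (6.92 ± 0.40), and Spen (2.82 ± 1.54) and Ciz1 (1.19 ± 0.91), which overlapped. The gaps between Lbr and Ctcf and between Rbm15 and Spen held no overlap. On day 8 Yy1 (49.7 ± 6.72) stood apart above Ctcf (30.8 ± 5.21), and Ciz1 (4.83 ± 1.09) and Spen (4.25 ± 3.77) had changed places, within overlapping ranges.

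Between the labels, Ciz1 was the 1 member called, lower in double, where 15.7% of all genes were called and 8.62% lower in double. With day and line in the fit, its double minus single difference was −0.83 (SE 0.27, adjusted p = 0.033 in limma), and without day 0 it was −1.0 (adjusted p = 0.0055). In both lines the difference was wide on days 1 to 4. On days 1 to 4 in X14, double stood at 0.474, 0.253, 0.359 and 0.542 RPKM and single at 0.986, 1.67, 1.08 and 1.57. In X18 on the same days, double stood at 0.134, 0.644, 0.310 and 0.379 RPKM and single at 1.16, 1.34, 1.05 and 1.96. Single was higher on 4 of 4 days in both lines and the groups did not overlap within a line. The mean difference was −1.72 ± 0.71 in X14 and −2.07 ± 0.88 in X18 (SD over 4 days). These levels rest on 20 reads against 65 in X14 and 15 against 60 in X18, summed over 4 libraries each. On days 5 to 8 the same differences were −0.28 ± 1.23 and 0.08 ± 0.44. Day 5 in X14 still had double far below single, at 1.05 and 4.43 RPKM (6 and 40 reads), and that double library is one of those lowest in long genes. On day 0 in X14, the pair that goes against its labels in X-linked level, double was the higher, at 2.49 and 0.560 RPKM. The label by stage interaction, the change of the double minus single difference from days 1 to 4 to days 5 to 8, was 1.80 for Ciz1 (SE 0.40, adjusted p = 0.0072), with 5.84% of all genes called. The labels also differed in cell state markers. With day 0 in the fit, Esrrb (0.54), Klf4 (0.74), Tbx3 (1.02) and Tfcp2l1 (0.80) were called higher in double. Dnmt3b (−0.85) and Pou3f1 (−0.75) were called lower. Marker differences without day 0 are not given. Zfp42, Nanog, Otx2 and Fgf5 were not called. The part of these differences in that of Ciz1 was not tested.

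The 4 cultures limit what the labels can show. With 2 cultures against 2, an exact permutation test cannot give a p below 0.333. Leaving out any 1 culture took the call from the Ciz1 difference (−1.0 to −0.65, adjusted p = 0.073 to 0.48) and from its interaction (1.45 to 2.16, adjusted p = 0.054 to 0.38), with the direction kept. With voom weights on the recovered reads, the difference was −0.38 (adjusted p = 0.23) and the interaction 1.79 (adjusted p = 0.0015). Without day 0 replicate 3 and day 5 replicate 1 the difference was −0.73 (adjusted p = 0.068). On days 1 to 4, Dnm1 held 9 reads in X14 double and 23 in single, and 10 and 14 in X18. 1110008P14Rik held 74 and 72 in X14 and 54 and 69 in X18. The interaction was 1.01 (adjusted p = 0.36) for Dnm1 and 0.48 (adjusted p = 0.39) for 1110008P14Rik, and neither passed.

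**Figure D3:**
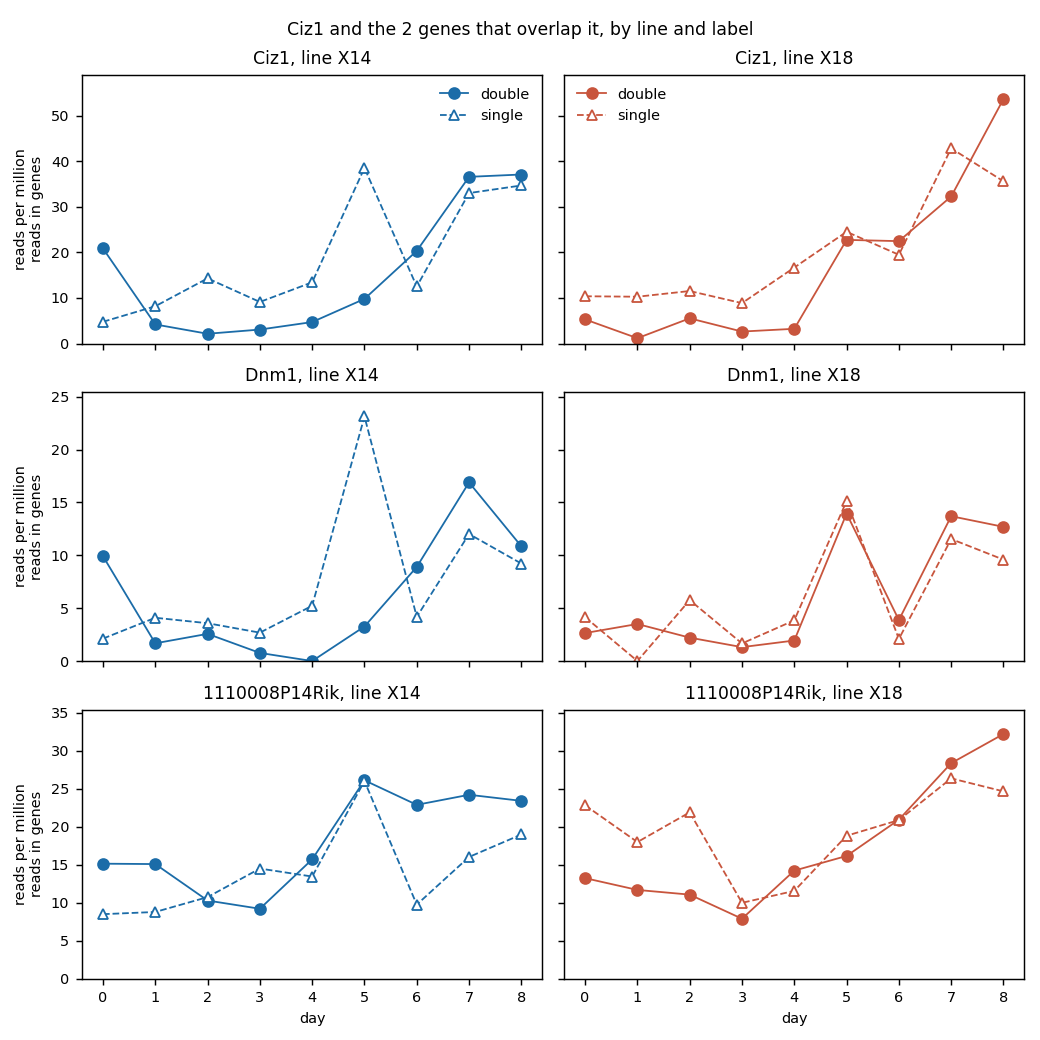
Level in RPM (y axis, from 0, one scale per row) of Ciz1 and of the 2 genes that overlap it, by day (x axis), for X14 in the left panels and X18 in the right panels; filled circles are double, open triangles single. Ciz1 was lower in double on days 1 to 4 in both lines, with 20 reads against 65 in X14 and 15 against 60 in X18.

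**Figure D4:**
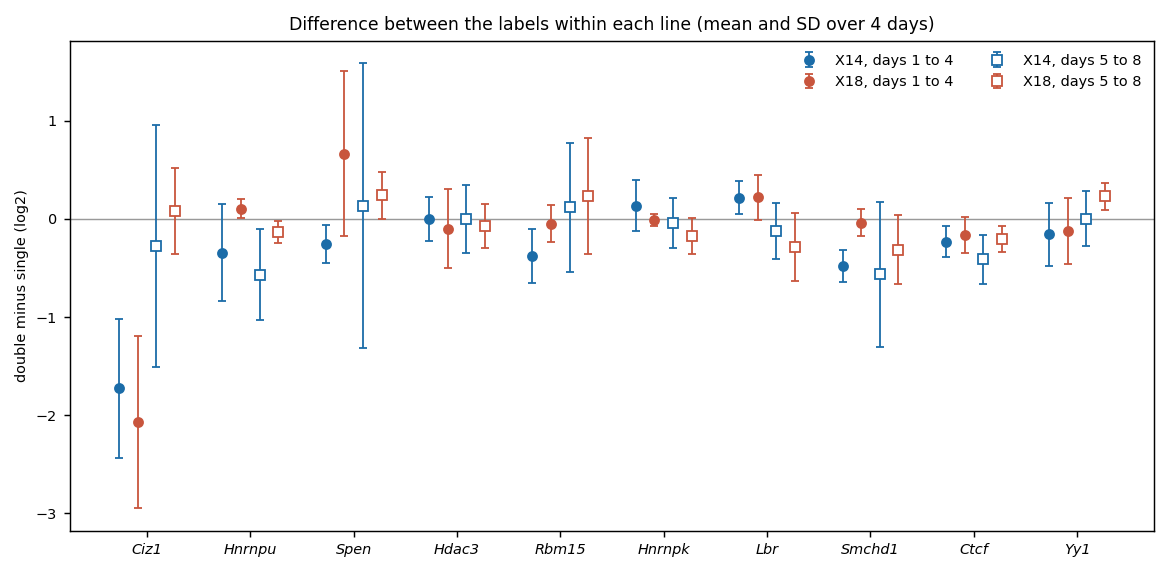
Double minus single difference (y axis, log2) of each silencing factor within X14 (blue) and X18 (red) on days 1 to 4 (filled circles) and days 5 to 8 (open squares); points are means and bars SD over 4 days. Ciz1 on days 1 to 4 stood at −1.72 and −2.07, and the means of all other members lay between −0.57 and 0.67.

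Ctcf was lower in double than in single on 8 of 8 days in X14 and on 8 of 8 in X18 from day 1 on, but by little. Its means over days 1 to 8 were 30.8 RPKM in double and 38.0 in single for X14, and 29.8 and 33.7 for X18. The difference of −0.25 (SE 0.09) just missed the threshold (adjusted p = 0.051 in limma) and passed without day 0 (−0.25, adjusted p = 0.013) and with voom (−0.24, adjusted p = 0.046), but not with any 1 culture left out (adjusted p = 0.15 to 0.40). Lbr was higher in double by 0.22 in both lines on days 1 to 4 and stood at −0.12 in X14 and −0.29 in X18 on days 5 to 8. Its label by stage interaction of −0.42 did not pass (adjusted p = 0.086). Smchd1 was lower in double on 8 of 8 days in X14 and 6 of 8 in X18 (difference −0.33, adjusted p = 0.16, and −0.35, adjusted p = 0.077, without day 0). Between the lines no member was called (limma, with 0.0205% of all genes, 3 genes). An unadjusted p under 0.05 was found for 4 of 10 members and for 2546 of 14612 genes. The largest differences were those of Spen (0.52 higher in X14, adjusted p = 0.27) and Smchd1 (0.35, adjusted p = 0.26). These members have 14.1 and 7.58 kb of exons. On day 0 the length slope was −0.43 and −0.29 in X18, against 0.12 and −0.15 in X14. On day 8 it was −0.04 and −0.16 against 0.29 and 0.24. On day 5 the order was reversed (0.07 and 0.20 against −0.33 and 0.05). The part of the length trend in the line differences is not given here. For the line by stage interaction no member and 0% of all genes were called, with 680 genes and 1 member at an unadjusted p under 0.05.

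The partner genes of each role were read beside the members. Of 33 partners counted, 6 were called higher and 7 lower on day 8, and their median log2 fold change was 0.31, against 0.23 over all genes, of which 29.2% were called higher and 16.5% lower. Among 3 corepressor genes counted, Gps2 was called higher and Tbl1xr1 lower. Gps2, a corepressor subunit, went from 4.19 to 11.5 RPKM (log2 fold change 1.68, SE 0.34, adjusted p = 1.3e-04 in limma), and Tbl1xr1, another subunit, went from 8.43 to 4.86 RPKM (−0.71, adjusted p = 0.045). In the m6A group 1 of 7 genes was called, Wtap, the adaptor of the writer complex, which fell from 25.4 to 12.3 RPKM (−1.05, SE 0.17, adjusted p = 7.5e-06). Rbm15b, the near relative of Rbm15, stands on 2 lines and was left out of the count. Its lines rose by 2.31 (adjusted p = 9.4e-04) and 0.95 (adjusted p = 0.015).

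Among 10 nuclear RNA-binding partners, 3 were called higher on day 8 (Safb, Hnrnpul1 and Hnrnpul2), with 29.2% of all genes. Another 3 were called lower (Matr3, Tardbp and Hnrnpc), with 16.5% of all genes. The extremes were Hnrnpul2, a relative of Hnrnpu (35.3 to 51.9 RPKM, 0.89, adjusted p = 0.0497), and Hnrnpc (286 to 138 RPKM, −1.05, adjusted p = 3.6e-05). In the nuclear envelope group 2 of 7 were called higher and 2 lower, beside the same shares of all genes. Lmna, the gene of A-type lamins, had the largest change of the 33 partners counted, from 2.24 to 31.5 RPKM (4.47, SE 0.77, adjusted p = 1.6e-05), while Banf1, a chromatin-binding envelope protein, went from 415 to 226 RPKM (−0.94, adjusted p = 0.0030). None of 6 architectural partners was called on day 8, though their median log2 fold change was 0.58, against 0.23 over all genes. Nearest the threshold were Stag1 (0.72, adjusted p = 0.051 in limma), Lrif1 (0.94, adjusted p = 0.060) and Smc3 (0.61, adjusted p = 0.065). Rad21 stood at −0.20. On day 4, when 25.8% of all genes were called, Smc3 and Lrif1, the partner protein of SMCHD1, were called higher. The cohesin subunit Rad21 was called lower on that day. Of the 10 nuclear RNA-binding partners, 4 were called higher on day 4 (Ptbp1, Hnrnpm, Hnrnpa2b1 and Hnrnpul2) and 1 lower (Matr3). Mettl3 and Lmnb1 were also called higher then, and Wtap and Sun1 lower. None of the corepressor genes counted was called on day 4. Over all 14612 genes, 2386 were called higher and 1377 lower on that day.

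**Figure D5:**
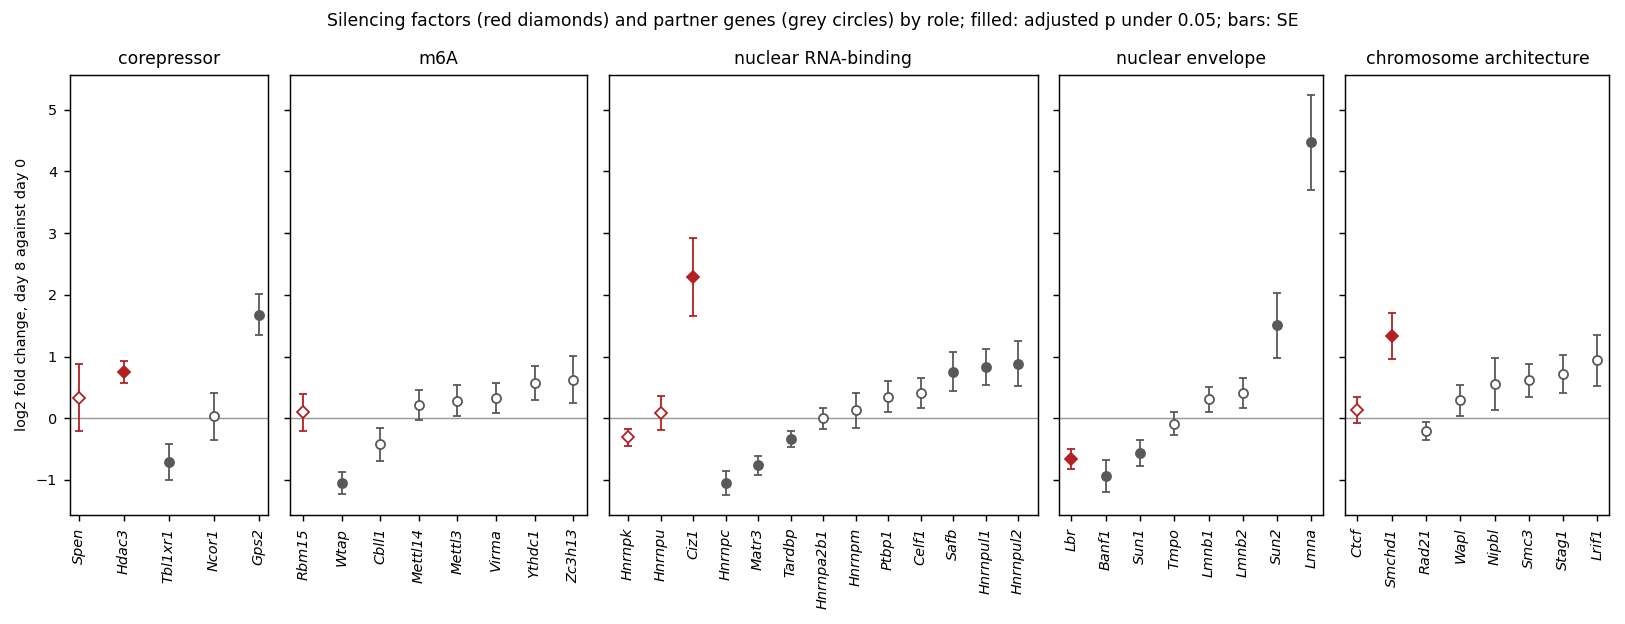
Log2 fold change on day 8 against day 0 (y axis) of the silencing factors (red diamonds, Yy1 not drawn) and of the partner genes (grey circles, Rbm15b not drawn) by role, with SE bars; filled symbols have an adjusted p under 0.05. Lmna at 4.47 and Ciz1 at 2.29 stand highest of those drawn, and Lbr, Wtap, Hnrnpc, Matr3 and Banf1 are among the genes called lower.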

How the data were processed

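RNA-seq of 36 libraries of Xmas mESCs was used, 4 per day on 9 days. The authors prepared TruSeq libraries, sequenced 75 bp single-end reads, trimmed them with trim_galore and aligned them to mm10 (TopHat2 2.0.12 per the labels), then quantified genes in SeqMonk. The annotation version and the use of strand are not given in the sources used here. The values deposited by the authors are log2 RPKM, with a gene without reads entered as 0.9 read. All 36 value columns were mapped to libraries by name. With that rule, whole reads (within 0.01 read) and one exon length per gene were recovered for 100% of genes, and 49.29% of the values had no read.

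Differential expression was tested on the deposited log2 values with limma 3.58.1 (lmFit, eBayes with trend) in R 4.3.3, over 14612 genes of at least 1 RPM in at least 4 libraries. Tests were two-sided with Benjamini-Hochberg adjustment over all genes tested, and a gene was called at an adjusted p under 0.05 with no minimum fold. Fold changes of lowly counted genes are on this log2 scale and depend on the 0.9 read rule. Day was the only factor for comparisons of days. Labels and lines were compared with day as covariate, and their interactions with stage on the 32 libraries of days 1 to 8. The fitting procedure was tested on simulated data. Each simulated library was drawn independently, without shared cultures or a length trend. That test therefore cannot show how far the p-values hold for days of one culture. Tables and plots were made in Python 3.11.15.

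Same-numbered libraries come from the same line and label, so the replicate number pairs the days by design. The deviations of same-numbered libraries from their day means correlated with a median r of 0.15 (−0.58 to 0.52; 91 of 144 pairs over 0.1). The blocked fit was run as an alternative.

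Named genes are all 10 members, and among listed partners of each role those called on day 8 with the largest rise or the largest fall, which are given with values. The other partners called on day 4 or day 8 and the values of Rbm15b were added after their values were seen. So were the values of the architectural partners and the label differences of the markers. The members and lists were chosen with earlier results of these data known. Alternatives were 2 other scalings, 2 other filters, log2(RPM + 1), voom weights, a fold minimum, the replicate block, leaving out each replicate, fitting 2 days alone, leaving out day 0, fitting within lines and another split of the days. Chosen after seeing the data were removal of a length trend, leaving out the 2 libraries lowest in long genes, leaving out replicates from the interactions, and fits within lines without day 0. The reads had no molecular identifiers, so read numbers are not numbers of molecules. Of the m6A partners, Rbm15b stands on 2 lines of the table. One listed partner gene of the corepressor role is not reported here and was left out of the counts.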

Additional observations from a re-analysis of the deposited data

Results flagged for a closer look

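In 90 groups of 4 libraries (10 members on 9 days), 3 held a library far from the other 3 by Dixon's criterion at the 95% level, where chance flags about 1 in 20 groups. Hnrnpu on day 8 stood at 146 RPKM in replicate 2 (X14 single), against 107 to 109 in the others. Rbm15 on day 7 stood at 8.39 RPKM in replicate 3 (X18 double), against 9.63 to 9.73. Yy1 on day 3 stood at 27.2 RPKM in replicate 3, against 38.1 to 40.2.

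The double minus single difference of Ciz1 changed between days 1 to 4 and days 5 to 8. The label by stage interaction was 1.80 on the log2 scale (adjusted p = 0.0072 in limma), with single above double on 4 of 4 days in both lines on days 1 to 4. On days 5 to 8 double was the higher on 3 of 4 days in X14 and 2 of 4 in X18. With any 1 replicate left out the interaction was not called, at adjusted p = 0.054 to 0.38.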

How the results depend on the processing

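With the replicate block, which pairs the same culture across days, 4 members in place of 3 were called on day 4. Smchd1 passed there (0.98, adjusted p = 0.030 in limma), and on every other day the number of members called was the same. Shares of all genes called with the block are not given, so these counts show only how the members' calls moved. Of 140 values of the members on day 8 under alternatives, 120 kept their direction and side of the threshold, 13 turned sign, 4 newly passed and 3 no longer passed. Of 170 differences between the labels, 123 kept both, 30 turned sign, 7 newly passed and 10 no longer passed. The cause was not tested where a value moved.

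Leaving out each replicate gave these ranges of members called: 3 to 8 over the 9 days, 0 to 1 on day 2, 0 to 2 on day 3, 0 to 3 on day 4, 0 to 5 on day 5, 2 to 4 on day 7, 0 to 3 from day 4 to day 8, and 0 to 0 for the labels and for the label by stage interaction (limma). Except where all counts were 0, the lowest count came without replicate 3, and on days 2, 3 and 4 also without replicate 4. With 2 days fitted alone, 0 members were called on days 2, 3 and 4, 1 on day 5, 3 on day 7 and 3 on day 8. Without day 0 replicate 3 and day 5 replicate 1, 0 were called on days 2 and 4, 3 on day 7, 0 between the labels and 1 between the lines (Spen). With a log2 fold change of at least 1, 0 were called at day 4, 1 at day 6, 2 at each of days 5, 7 and 8, 1 from day 4 to day 8 and 0 between the labels. The 75th percentile scaling gave 2 on day 2 (Hnrnpu and Lbr, with 660 of 14612 genes) and quantile normalization 3 on day 7 (with 6894 of 14612 genes). Between the labels 2 (Ciz1 and Ctcf) were called with either scaling, the 10 RPM filter, log2(RPM + 1), no day 0 or the length trend removed. Of 14612 genes, 2438 were called with the 75th percentile scaling, 2639 with quantile normalization and 2651 with the length trend removed. For the other settings of this paragraph the shares of all genes are not given. Those counts show only how the calls of the members moved.

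Members near 0 changed sign on day 8. Spen was −0.013 with quantile normalization and −0.23 with the length trend removed. Hnrnpu was −0.19 with the 75th percentile, −0.14 with the length trend removed, −0.25 without the 2 libraries and −0.22 to 0.41 over the left-out replicates. Rbm15 was −0.18 with the 75th percentile, −0.31 with quantile normalization and −0.10 to 0.38 over left-out replicates. Ctcf was −0.14 with the 75th percentile, −0.018 with the length trend removed, −0.13 without the 2 libraries and −0.05 to 0.36 over left-out replicates. Hnrnpk passed on day 8 with the 75th percentile (−0.59), the 10 RPM filter, voom and the length trend removed (−0.52).

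Label differences near 0 also turned. Lbr stood at 0.0032 with the 75th percentile, 0.0030 with quantile normalization, 0.0030 with voom, 0.0076 without day 0, 0.047 within X14, 0.048 there without day 0, 0.026 without the 2 libraries and −0.064 to 0.047 over left-out replicates. Hnrnpk stood at 0.011 within X14, 0.048 there without day 0 and −0.072 to 0.011 over left-out replicates. Rbm15 stood at 0.0010 with the 75th percentile, 0.022 with quantile normalization, 0.077 within X18, 0.092 there without day 0, 0.045 without the 2 libraries and −0.098 to 0.077 over left-out replicates. Yy1 stood at 0.0079 with the 75th percentile, 0.027 with quantile normalization, 0.0024 with voom, 0.043 within X18, 0.054 there without day 0, 0.047 without the 2 libraries and −0.050 to 0.043 over left-out replicates. Spen was −0.061 and Hdac3 0.0016 within X14 without day 0.

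Depth limits Ciz1 most, with 1 to 65 reads per library, and Spen, with as few as 5. The length trend, the 2 left-out libraries, the interactions without a replicate and the lines without day 0 were chosen after seeing the data.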
